A study of Homo sapiens with 48 samples.

Results

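The MHC class I antigen presentation genes examined here were HLA-B, HLA-C, HLA-E, HLA-F, B2M, TAP1, TAP2, PSMB9 and NLRC5, found by gene symbol. All 9 were found among the 20241 genes of the RNAseq table. Values are in CPM, counts scaled in each library by a factor that did not follow its read total alone. All 9 were among the 12471 genes tested, which had more than 1 CPM in at least 3 libraries. They were followed in PSN1 cells, a human pancreatic ductal adenocarcinoma (PDAC) line whose genotype is labelled WT, grown in RPMI1640 with fetal bovine serum. Parental cells were compared with TalaR-M cells, which had been selected with the PARP inhibitor Talazoparib over 4 months and were kept in 50 nM of the drug. The third group, TalaR-DF, consisted of TalaR cells that had afterwards been cultured for 4 weeks in medium free of the drug, so that both TalaR groups share the selection. The paper reports that PSN1 TalaR cells had by then regained nearly the Talazoparib sensitivity of parental cells. Where both TalaR groups, or their libraries, are called resistant below, the word names their origin and not their state when sampled. Each group had 3 replicates, and nothing in the sources used here says whether these came from separate cultures or selections, or whether the resistant cells were 1 clone, so that p-values measure only the spread between these libraries. Data of the other 39 samples of the series was not analysed here.

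MHC class I molecules carry peptides from inside the cell to its surface, where cytotoxic T cells and natural killer cells read them. The proteasome cuts proteins into peptides, TAP1 and TAP2 pump these into the endoplasmic reticulum, and there a polymorphic heavy chain folds around the peptide together with the light chain B2M. Interferon raises the transcription of most of these genes, through response elements bound by IRF and STAT factors and through NLRC5, the class I transactivator, which is held at the promoters by the RFX complex.

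The promoters show how far the members share such elements. In RefSeq's table for GRCh38.p14, 7 of the 9 members had an entry, HLA-E and NLRC5 being the others, and the 250 bases before the start were searched on both strands. The 3 heavy chain genes described first below, the light chain gene and the immunoproteasome gene are printed in the direction of transcription, because the first 3 and PSMB9 shared an order of the groups that B2M did not. Capitals mark the letters that matched a motif.

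HLA-B, chr6:31357180-31357429, minus strand: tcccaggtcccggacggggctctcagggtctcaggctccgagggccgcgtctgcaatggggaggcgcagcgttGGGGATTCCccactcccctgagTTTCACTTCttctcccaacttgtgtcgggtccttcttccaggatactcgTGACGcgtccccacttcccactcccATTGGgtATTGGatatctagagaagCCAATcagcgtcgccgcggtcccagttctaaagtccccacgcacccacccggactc
HLA-C, chr6:31272093-31272342, minus strand: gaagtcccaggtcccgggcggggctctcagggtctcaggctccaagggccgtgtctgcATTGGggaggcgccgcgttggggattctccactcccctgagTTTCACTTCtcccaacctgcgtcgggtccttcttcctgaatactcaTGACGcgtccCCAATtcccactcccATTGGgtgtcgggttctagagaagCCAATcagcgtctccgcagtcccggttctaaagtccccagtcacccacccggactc
HLA-F, chr6:29723184-29723433, plus strand: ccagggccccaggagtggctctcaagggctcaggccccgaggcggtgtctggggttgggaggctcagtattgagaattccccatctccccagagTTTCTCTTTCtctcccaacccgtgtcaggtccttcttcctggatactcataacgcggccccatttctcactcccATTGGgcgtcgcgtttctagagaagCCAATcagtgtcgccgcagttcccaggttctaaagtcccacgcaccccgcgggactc
B2M, chr15:44711267-44711516, plus strand: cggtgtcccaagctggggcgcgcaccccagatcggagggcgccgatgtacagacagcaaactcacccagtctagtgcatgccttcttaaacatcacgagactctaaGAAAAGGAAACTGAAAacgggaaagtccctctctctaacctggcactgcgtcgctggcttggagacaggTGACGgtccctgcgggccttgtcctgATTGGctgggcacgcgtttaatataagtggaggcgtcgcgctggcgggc
PSMB9, chr6:32853942-32854191, plus strand: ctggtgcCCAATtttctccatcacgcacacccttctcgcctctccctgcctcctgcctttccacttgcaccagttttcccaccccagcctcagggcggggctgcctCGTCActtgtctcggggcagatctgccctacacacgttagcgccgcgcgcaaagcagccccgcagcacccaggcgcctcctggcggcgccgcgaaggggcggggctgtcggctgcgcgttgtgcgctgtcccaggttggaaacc

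An interferon-stimulated response element, written as GAAA, any 2 bases and GAAA, was found in 3.02% of 35116 promoters within the same 250 bases. It was present in HLA-F, where its first base lay 156 bases before the start, in TAP1 and TAP2, and in B2M, where 2 overlapping copies began 144 and 138 bases before the start. A shorter form, GAANNGAAA, which 6.56% of promoters held, was present in HLA-B at 155 bases and in HLA-C at 151 bases before the start, and in TAP2 it overlapped the longer one. The NF-kB motif GGGNNTTCC, in 5.78% of promoters, matched HLA-B at 177 bases and no other member. TGACG, the core of the X2 box over which CREB and ATF1 sit beside RFX, occurred in 21.2% of promoters and in HLA-B, HLA-C, B2M, TAP2 and PSMB9. CCAAT, the Y box letters, occurred in 32.0% of promoters and in each of the 5 printed windows. The STAT motif TTCNNNGAA, in 6.57% of promoters, was found in the second of 2 TAP1 windows. The PSMB9 window of 250 bases held neither interferon motif. TAP1 and PSMB9 are transcribed away from each other from RefSeq starts 487 bases apart. The longer interferon motif in the first of 2 TAP1 windows began 134 and 128 bases before the TAP1 start. These copies lie in the stretch between the starts of TAP1 and PSMB9, outside the PSMB9 window. A match of letters is a description and does not show that a factor binds.

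The deposited values are log2 CPM, in which a value under 0 was set to 0. Libraries held between 8387755 and 14973847 reads on genes above 1 CPM. One library stood apart: TalaR-M replicate 2 had the fewest reads and correlated with the other TalaR-M replicates at r = 0.780 each across genes, against 0.994 between these. This library deviated from TalaR-M replicates 1 and 3 with transcript length, among genes with a mean above 2 log2 CPM. Its median deviation was 1.37 on the log2 scale over the tenth with the shortest transcripts and -1.45 over the tenth with the longest. The tests of the members and the counts of each list are therefore given with and without it. Of 10 epithelial and pancreatic ductal markers, 8 were above 1 CPM in every library of each group, and 2, with CDH1 among them, were at 0. The summed level of the epithelial list was between 1230 and 1296 CPM in parental, between 1812 and 5893 CPM in TalaR-M (between 1812 and 1967 without TalaR-M replicate 2) and between 1039 and 1176 CPM in TalaR-DF libraries. Of 10 leukocyte markers, between 8 and 9 were at 0 in every library of a group, PTPRC among them in parental cells, and the list summed to between 11.1 and 14.7, between 4.14 and 7.11 (between 4.14 and 5.81 without that library), and between 1.18 and 2.55 CPM in the 3 groups. Of 9 stromal and endothelial markers, between 4 and 5 were at 0, and the list summed to between 191 and 199, between 29.7 and 54.8 (between 52.5 and 54.8 without that library), and between 76.8 and 84.8 CPM. In TalaR-M against parental cells 2 of 8 epithelial markers tested were higher and 1 lower, 0 of 2 leukocyte markers higher and 1 lower, and 1 of 5 stromal markers higher and 4 lower. For TalaR-DF against parental cells these counts were 1 higher and 2 lower, 0 and 1, and 0 and 3, and between TalaR-M and TalaR-DF cells 3 and 0, 0 and 0 (2 at an unadjusted p under 0.05 from limma), and 2 and 2. With TalaR-M replicate 2 left out the epithelial counts in the 3 comparisons were 4 and 2, 1 and 4, and 8 and 0, the leukocyte counts 1 and 1, 0 and 1, and 2 and 0, and the stromal counts 1 and 4, 0 and 4, and 3 and 2. Of all genes tested, 10.3% were higher and 13.2% lower, 6.77% and 11.8%, and 7.79% and 4.25% with all 9 libraries. Without that library these shares were 30.2% and 30.0%, 32.5% and 30.4%, and 23.5% and 25.3%. The part of these markers in the results was not tested, and in bulk RNA fewer cells that express a gene cannot be told apart from less RNA of that gene per cell.

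HLA-B, HLA-C and HLA-F rose in TalaR-M cells over the parental level, and the 3 genes lay below the parental level in all TalaR-DF libraries. HLA-E and B2M fell in TalaR-DF cells. TAP2 and NLRC5 were the members whose TalaR-DF values lay above the parental ones, and those of each other member lay below. The share of all genes with no overlap between a pair of groups was not counted. Without TalaR-M replicate 2, 32.5% of all genes tested were called higher and 30.4% lower in TalaR-DF than parental cells. In TalaR-M against parental cells HLA-E, TAP1, TAP2 and PSMB9 were not called with all 9 libraries and were called when TalaR-M replicate 2 was left out.

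**Figure D1:**
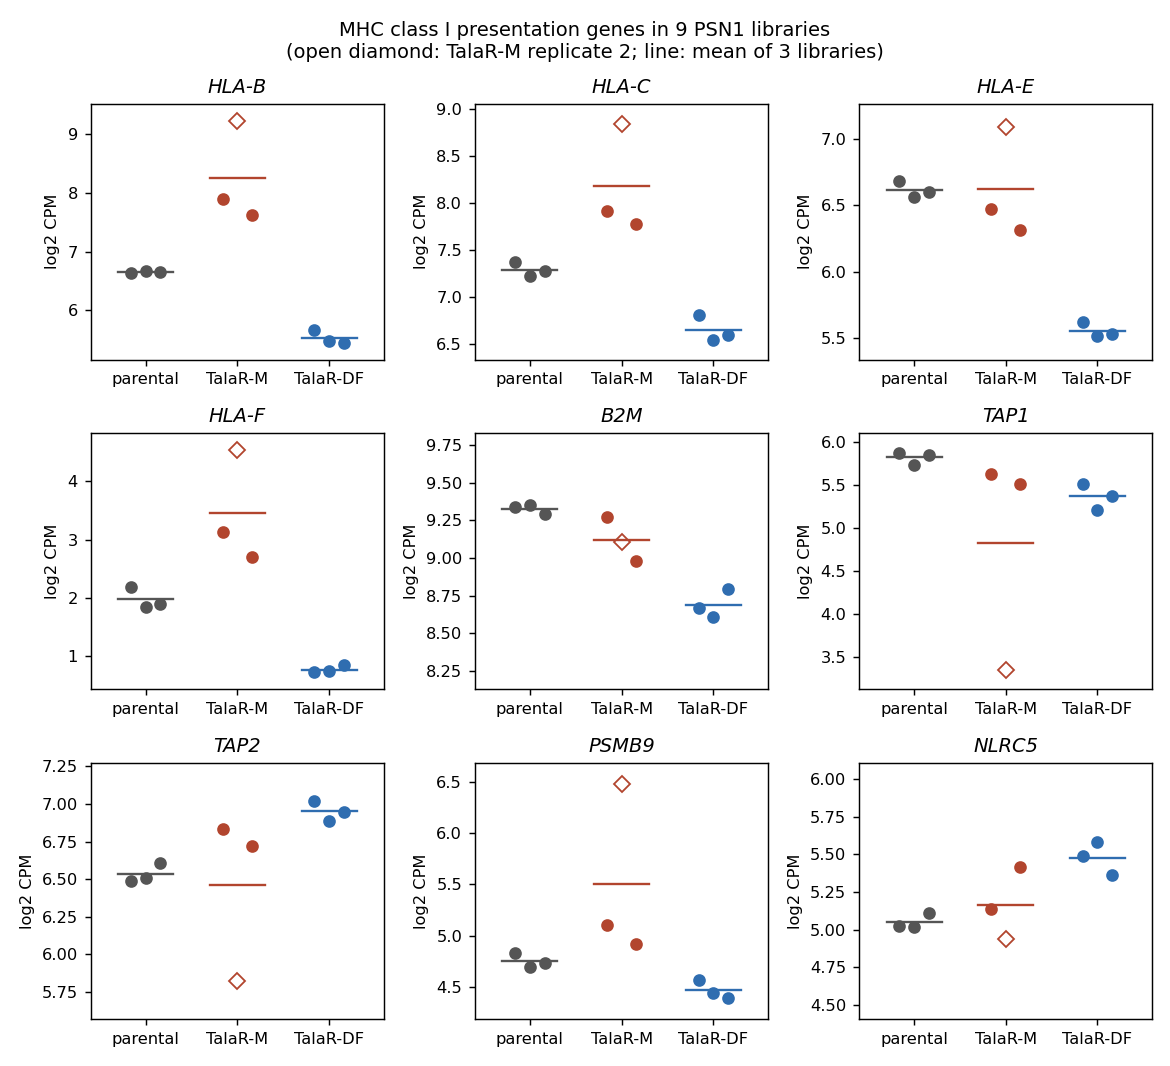
Level of each of the 9 genes in log2 CPM (vertical axis, with its own range in each panel) in parental, TalaR-M and TalaR-DF libraries, 3 per group, with a line at each group's mean and an open diamond for TalaR-M replicate 2. HLA-B, HLA-C, HLA-F and PSMB9 were highest in TalaR-M, intermediate in parental and lowest in TalaR-DF libraries with no overlap, and replicate 2 lay far from its group for all genes but B2M and NLRC5.

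HLA-B (chr6:31353872-31367067, minus strand), a classical heavy chain that presents peptides to CD8 T cells, was at 6.64, 6.66 and 6.65 log2 CPM in the parental libraries. It reached 7.90, 9.22 and 7.62 log2 CPM in the TalaR-M libraries, in the order of the replicates as throughout, and was at 5.67, 5.47 and 5.45 log2 CPM in TalaR-DF libraries. The 3 groups did not overlap: each TalaR-M library was above, and each TalaR-DF library below, the narrow parental range. For TalaR-M against parental cells limma put the change of HLA-B at 1.60 on the log2 scale (standard error 0.36, adjusted p = 0.0149), a 3.02-fold rise, and without TalaR-M replicate 2 it was 1.11 (adjusted p = 7.18e-07), a 2.16-fold rise. The call in all 9 libraries was lost without any 1 parental library (adjusted p from 0.0543 to 0.0561) and with only the groups compared (0.0642). Against parental cells, in TalaR-DF, it was -1.12, which did not pass in the fit of all 9 libraries (adjusted p = 0.0697) and passed without TalaR-M replicate 2 (adjusted p = 2.53e-07). That library has no part in the fold change between TalaR-DF and parental cells and enters that test only through the shared spread. Between the resistant groups the difference was 2.72 (standard error 0.36, adjusted p = 0.00227), and 2.23 without TalaR-M replicate 2 (adjusted p = 7.57e-09). HLA-B was thus 6.57-fold, or 4.69-fold without that library, higher with the drug than after its removal.

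HLA-C (chr6:31268749-31272130, minus strand), a classical heavy chain that also serves as ligand of killer cell immunoglobulin-like receptors, was at 7.38, 7.23 and 7.27 log2 CPM in parental libraries. In TalaR-M libraries it was at 7.92, 8.84 and 7.78, and in TalaR-DF libraries at 6.81, 6.55 and 6.60 log2 CPM. The order of the groups was that of HLA-B, again without overlap, over a smaller range. HLA-C rose by 0.89 in TalaR-M against parental cells (standard error 0.26, adjusted p = 0.0422), and, when TalaR-M replicate 2 was left out, by 0.55 (adjusted p = 0.000144). The call in all 9 libraries was lost without any 1 parental or TalaR-DF library (adjusted p from 0.0688 to 0.129), with rescaling by the median ratio (0.0611), a replicate block (0.0722), no filter on low values (0.0858) and only the groups compared (0.123). Between TalaR-DF and parental cells the log2 fold change of HLA-C was -0.64 (adjusted p = 0.145, and 1.73e-05 without TalaR-M replicate 2). Between the resistant groups it was 1.53 (standard error 0.26, adjusted p = 0.00776), and 1.19 without TalaR-M replicate 2 (adjusted p = 5.39e-07). That call was lost with only the groups compared (adjusted p = 0.0660 by limma).

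HLA-F (chr6:29722775-29738528, plus strand), a nonclassical heavy chain that can reach the surface without peptide and engage natural killer cell receptors, was far less expressed, at 2.19, 1.85 and 1.89 log2 CPM in parental libraries. It was at 3.13, 4.53 and 2.71 log2 CPM in TalaR-M and at 0.73, 0.74 and 0.86 log2 CPM in TalaR-DF libraries, which corresponded to between 91 and 174 and between 22 and 23 recovered reads. The groups did not overlap, and the order was that of HLA-B and HLA-C. HLA-F rose by 1.48 in TalaR-M against parental cells (standard error 0.41, adjusted p = 0.0335), and, when TalaR-M replicate 2 was left out, by 0.94 (adjusted p = 0.000411). The call in all 9 libraries was lost without any 1 parental or TalaR-DF library (adjusted p from 0.0589 to 0.109), and with a replicate block (0.0551), 8 CPM added (0.0624), no filter on low values (0.0819) and only the groups compared (0.110). Its log2 fold change in TalaR-DF against parental cells was -1.20 (adjusted p = 0.0833, and 2.38e-05 without TalaR-M replicate 2). Between the resistant groups it was 2.68 (standard error 0.41, adjusted p = 0.00453), and 2.14 without TalaR-M replicate 2 (adjusted p = 1.11e-06). The value is uncertain in 1 respect: HLA-F overlaps the antisense gene HLA-F-AS1, and although the libraries were stranded, the strand setting of the counting is not given in the sources used here.

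HLA-E (chr6:30489509-30494194, plus strand), which displays leader peptides of other heavy chains to the inhibitory receptor NKG2A on natural killer cells, behaved differently. It was at 6.69, 6.56 and 6.60 log2 CPM in parental, at 6.48, 7.09 and 6.32 in TalaR-M and at 5.62, 5.51 and 5.53 log2 CPM in TalaR-DF libraries. TalaR-M replicate 2 lay above, and the other TalaR-M replicates below, the parental range, whereas all TalaR-DF libraries were lower than all others. HLA-E fell by 1.06 in TalaR-DF against parental cells (standard error 0.20, adjusted p = 0.00678, and 6.89e-08 without TalaR-M replicate 2), a 2.09-fold decrease. Its log2 fold change in TalaR-M against parental cells was 0.01 (adjusted p = 0.974) and turned to -0.22 without TalaR-M replicate 2 (adjusted p = 0.0200). The difference of HLA-E between TalaR-M and TalaR-DF cells was 1.07 (standard error 0.20, adjusted p = 0.0104), and 0.84 without TalaR-M replicate 2 (adjusted p = 2.70e-06). It did not pass without TalaR-DF replicate 2 or 3 (adjusted p = 0.0504 in both) or with only the groups compared (0.0736).

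HLA-G, a nonclassical heavy chain of the placenta and not a member, was at 0 in all 9 libraries. Heavy chain genes are paralogs and highly polymorphic, so that reads could be split between them or lost where the alleles of PSN1 differ from the reference. Of the 75-base windows of the canonical transcripts, 1.98% for HLA-C, 2.06% for HLA-E and 0% for HLA-B and HLA-F occurred unchanged in another HLA gene. Of the 150-base windows it was 0% for these 4 genes, and the loss to allele differences was not tested.

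B2M (chr15:44711358-44718851, plus strand), the light chain shared by all class I molecules, was the most expressed member, at 9.34, 9.35 and 9.29 log2 CPM in parental libraries. It was at 9.27, 9.10 and 8.98 log2 CPM in TalaR-M and at 8.67, 8.61 and 8.80 log2 CPM in TalaR-DF libraries. The order was parental, TalaR-M and TalaR-DF from high to low, with no overlap though with a narrow gap between 9.29 and 9.27, and TalaR-M replicate 2 lay between the other TalaR-M replicates. B2M fell by 0.64 in TalaR-DF against parental cells (standard error 0.13, adjusted p = 0.0107, and 2.92e-05 without TalaR-M replicate 2), a 1.55-fold decrease. The call was lost by a small margin without parental replicate 1, parental replicate 2 or TalaR-DF replicate 2 (adjusted p = 0.0502, 0.0516 and 0.0550). Its log2 fold change in TalaR-M against parental cells, -0.21, did not pass (adjusted p = 0.270, and 0.0720 without TalaR-M replicate 2). Between TalaR-M and TalaR-DF cells the difference was 0.43 (adjusted p = 0.0708), and 0.44 without TalaR-M replicate 2 (adjusted p = 0.00185).

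TAP1 and TAP2 form the peptide transporter together. TAP1 (chr6:32845209-32853816, minus strand) was at 5.88, 5.74 and 5.85 log2 CPM in parental, at 5.62, 3.34 and 5.51 in TalaR-M and at 5.52, 5.21 and 5.37 log2 CPM in TalaR-DF libraries. All TalaR-M and TalaR-DF libraries lay below the parental range, and TalaR-M replicate 2, with 76 recovered reads against 639 and 773 in the other TalaR-M replicates, lay far below them. The log2 fold change of TAP1 in TalaR-M against parental cells was -1.0 (standard error 0.53, adjusted p = 0.207), and -0.26 without TalaR-M replicate 2 (adjusted p = 0.0317). For TalaR-DF against parental cells it was -0.46 (adjusted p = 0.671, and 0.000492 without TalaR-M replicate 2). The difference of TAP1 between the resistant groups, -0.54 (adjusted p = 0.481), turned to 0.20 without TalaR-M replicate 2 and passed in neither fit (adjusted p = 0.0956 in the latter).

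TAP2 (chr6:32821833-32838739, minus strand) was at 6.49, 6.51 and 6.61 log2 CPM in parental, at 6.83, 5.82 and 6.72 in TalaR-M and at 7.02, 6.89 and 6.95 log2 CPM in TalaR-DF libraries. All TalaR-DF libraries were above all others, and TalaR-M replicates 1 and 3 lay between the parental and the TalaR-DF range, so that TAP2 ran opposite to its partner. Against parental cells, in TalaR-DF, the log2 fold change of TAP2 was 0.42 (adjusted p = 0.328, and 9.13e-05 without TalaR-M replicate 2). In TalaR-M against parental cells it was -0.08 (adjusted p = 0.838) and turned to 0.24 without TalaR-M replicate 2 (adjusted p = 0.00899). Between TalaR-M and TalaR-DF cells it was -0.49 (adjusted p = 0.215), and -0.18 without TalaR-M replicate 2 (adjusted p = 0.0502).

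PSMB9 (chr6:32844136-32859851, plus strand), which encodes the immunoproteasome subunit that takes the place of PSMB6, was at 4.83, 4.69 and 4.74 log2 CPM in parental libraries. It was at 5.10, 6.48 and 4.92 log2 CPM in TalaR-M and at 4.57, 4.44 and 4.39 log2 CPM in TalaR-DF libraries. The groups did not overlap, but outside TalaR-M replicate 2 the steps between them were small. The log2 fold change of PSMB9 in TalaR-M against parental cells was 0.75 (standard error 0.37, adjusted p = 0.172), and 0.26 without TalaR-M replicate 2 (adjusted p = 0.0364). The change from parental to TalaR-DF cells was -0.29 (adjusted p = 0.700, and 0.0116 without TalaR-M replicate 2). The difference of PSMB9 between TalaR-M and TalaR-DF cells was 1.03 (adjusted p = 0.107), and 0.54 without TalaR-M replicate 2 (adjusted p = 0.000664). In the GENCODE 44 annotation TAP1 and PSMB9 overlap each other on opposite strands, so that the same limit of the strand setting holds for both.

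NLRC5 (chr16:56989485-57083531, plus strand), the transactivator of class I genes, was at 5.03, 5.01 and 5.11 log2 CPM in parental, at 5.13, 4.93 and 5.42 in TalaR-M and at 5.49, 5.58 and 5.36 log2 CPM in TalaR-DF libraries. The TalaR-DF values were all above the parental ones, and the TalaR-M values overlapped both. NLRC5 thus lay highest in the group where HLA-B, HLA-C, HLA-E, HLA-F and B2M lay lowest. Its log2 fold change in TalaR-DF against parental cells was 0.43 (standard error 0.15, adjusted p = 0.10, and 0.00119 without TalaR-M replicate 2). In TalaR-M against parental cells it was 0.11 (adjusted p = 0.611, and 0.0656 without TalaR-M replicate 2), and between the resistant groups -0.31 (adjusted p = 0.206, and 0.113 without TalaR-M replicate 2).

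**Figure D2:**
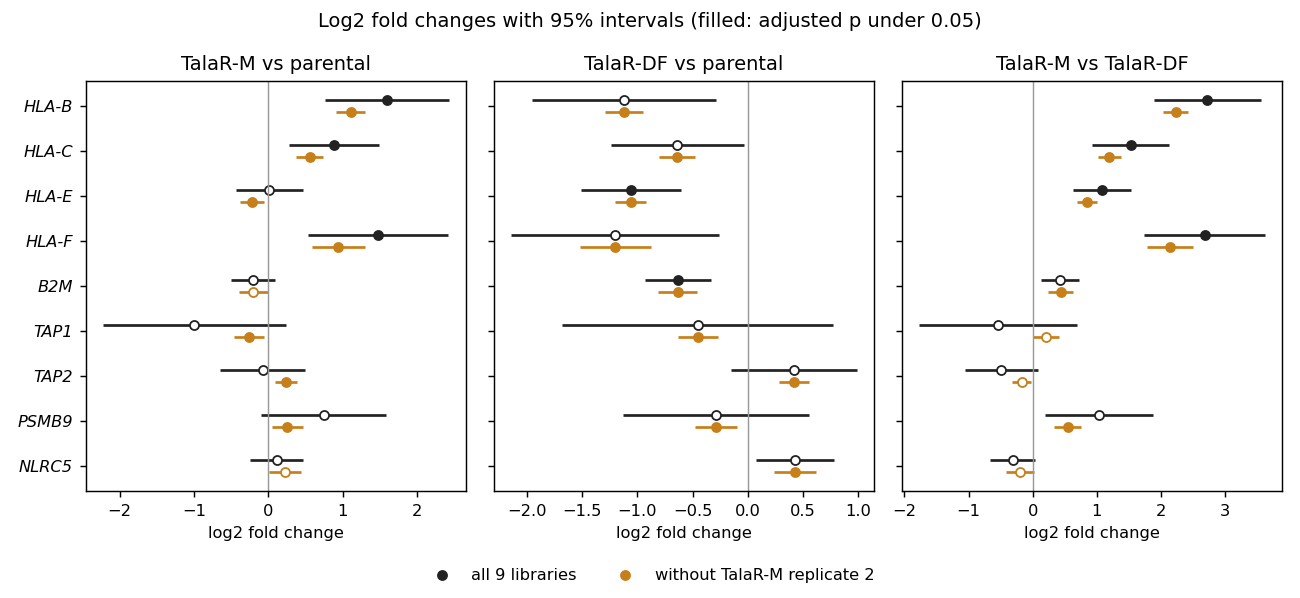
Log2 fold change of each of the 9 genes (horizontal axis) with its 95% interval from limma in the 3 comparisons, for all 9 libraries in black and without TalaR-M replicate 2 in orange, filled where the adjusted p was under 0.05. HLA-B and HLA-F, at 2.72 and 2.68 between TalaR-M and TalaR-DF cells, stood farthest from 0, and the intervals narrowed without replicate 2.

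Counted over the members, 3 of 9 were higher and 0 lower in TalaR-M than parental cells at an adjusted p under 0.05 from limma, where 10.3% of all genes tested were higher and 13.2% lower. The median log2 fold change of the members was 0.11, against -0.09 over all genes. Those 3 calls of the first comparison, HLA-B, HLA-C and HLA-F, were lost when any 1 parental library was left out (0 of 9 members by limma, though 3 at an unadjusted p under 0.05). When any 1 TalaR-DF library was left out, HLA-B alone of the members passed, beside from 2326 to 2334 of 12471 genes. Without any 1 parental library from 1801 to 1841 genes passed. Without TalaR-M replicate 2, 5 members were higher and 2 lower, where the shares of all genes grew to 30.2% higher and 30.0% lower. In TalaR-DF against parental cells 0 members were higher and 2 lower, against 6.77% and 11.8% of all genes, with a median of -0.64 against 0.01. Without TalaR-M replicate 2, 2 members were higher and 7 lower, against 32.5% and 30.4% of all genes. Between TalaR-M and TalaR-DF cells 4 members were higher and 0 lower, against 7.79% and 4.25%, with a median of 1.03 against -0.09, and without TalaR-M replicate 2, 6 were higher and 0 lower, against 23.5% and 25.3%. The order TalaR-M, parental and TalaR-DF from high to low, with no overlap in the 9 libraries, was met by 4 members, HLA-B, HLA-C, HLA-F and PSMB9, and by 1.92% of all genes tested. The order parental, TalaR-M and TalaR-DF was met by 1 member, B2M, and by 1.69% of all genes. The comparisons share libraries, and 7 members lie in the same stretch of chromosome 6, so that these counts are not independent of each other.

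**Figure D3:**
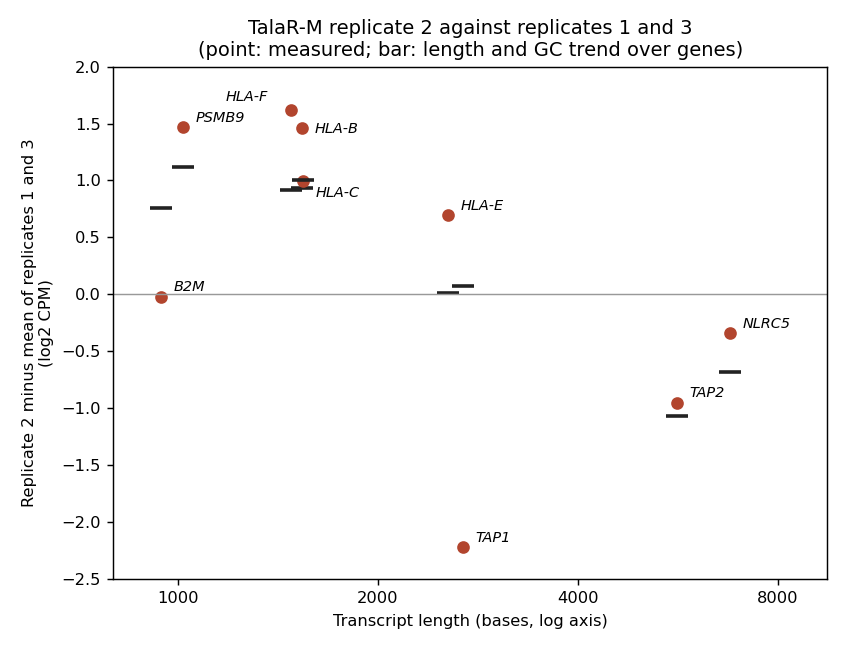
Deviation of TalaR-M replicate 2 from the other TalaR-M replicates (their mean) in log2 CPM (vertical axis) against canonical transcript length in bases (horizontal log axis) for the 9 genes as points. A bar marks the value given to each by the trend on length and GC content, fitted over genes with a mean above 2 log2 CPM. HLA-C and TAP2 lay near their bar, and TAP1, at -2.22, lay farthest from it.

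The deviation of TalaR-M replicate 2 went in opposite directions among the members. Their canonical transcripts were 943 bases long for B2M, 1017 for PSMB9, 1480 for HLA-F, 1536 for HLA-B, 1542 for HLA-C, 2548 for HLA-E, 2685 for TAP1, 5643 for TAP2 and 6781 for NLRC5, with a median of 3434 over the genes tested. Against replicates 1 and 3, HLA-F was 1.61, PSMB9 1.47, HLA-B 1.46, HLA-C 1.00 and HLA-E 0.69 higher on the log2 scale, and B2M differed by -0.02. NLRC5 was at -0.34, TAP2 at -0.95 and TAP1 at -2.22. A trend on length and GC content was fitted over tested genes with a mean above 2 log2 CPM and a known transcript length. Its value was 1.00 for HLA-C and -1.07 for TAP2, close to what was measured. For TAP1 and B2M it was 0.07 and 0.75, from which the measured values differed by -2.30 and -0.78. The remainder had an SD of 0.85 over the genes of that fit, so that of the members TAP1 alone lay more than 2 such SDs from the trend.

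Levels of different genes can be compared per length. In parental cells, per kilobase of canonical transcript, B2M was at 9.41 log2 CPM per kb, followed by HLA-C at 6.67, HLA-B at 6.03, HLA-E at 5.27, PSMB9 at 4.73, TAP1 at 4.40, TAP2 at 4.04, NLRC5 at 2.29 and HLA-F at 1.41, and no neighbours in this order overlapped over the 3 libraries. In TalaR-M replicates 1 and 3 HLA-B was at 7.14 and HLA-C at 7.22 log2 CPM per kb, with overlapping values, and TAP2, at 4.28, lay above TAP1, at 4.14. In TalaR-DF libraries HLA-B was at 4.91 and HLA-C at 6.03 log2 CPM per kb, and TAP2, at 4.46, overlapped PSMB9, at 4.44, while HLA-E lay at 4.21 and TAP1 at 3.94. TalaR-M replicate 2 was left out of these levels because of its dependence on length.

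Ratios within a library show how the steps of the pathway shifted against each other. The log2 ratio of TAP1 to TAP2 was -0.61, -0.77 and -0.76 in parental, -1.21, -2.48 and -1.21 in TalaR-M and -1.51, -1.67 and -1.57 in TalaR-DF libraries. Both resistant groups lay below the parental range, and the ratio was 0.87 lower in TalaR-DF than in parental cells (exact two-sided permutation p = 0.1, the smallest that 3 against 3 libraries allow). The ratio of TAP1 to PSMB9, the divergent pair, was at 1.05, 1.04 and 1.12 in parental, at 0.52, -3.13 and 0.59 in TalaR-M and at 0.95, 0.78 and 0.98 in TalaR-DF libraries. It was thus lower in TalaR-M libraries than in the other groups also outside replicate 2, by 0.51 against parental cells without this library.

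Immunoproteasome subunits were set against the constitutive subunits whose places they take. The log2 ratio of PSMB9 to PSMB6 was -1.75, -1.81 and -1.87 in parental, -1.63, -2.03 and -1.76 in TalaR-M and -2.30, -2.18 and -2.26 in TalaR-DF libraries. The TalaR-DF values were all lower than the others, by 0.43 against parental cells (exact p = 0.1), while the TalaR-M values spread around the parental ones. The ratio of PSMB8 to PSMB5 differed between all groups without overlap, at -0.64 ± 0.06 (SD, n = 3) in parental, -1.10 ± 0.04 in TalaR-M and -1.53 ± 0.05 in TalaR-DF libraries, and TalaR-M replicate 2 lay with its group in this ratio. The ratio of PSMB10 to PSMB7 was -4.91 ± 0.03 in parental, -4.61 ± 0.45 in TalaR-M and -5.31 ± 0.24 in TalaR-DF libraries. The TalaR-M group overlapped both others only through replicate 2, at -5.12. TalaR-M replicates 1 and 3, at -4.43 and -4.29, lay above all parental and TalaR-DF values, by 0.55 and 0.95 in the mean. The differences with all libraries changed when 8 CPM was added, as given below.

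**Figure D4:**
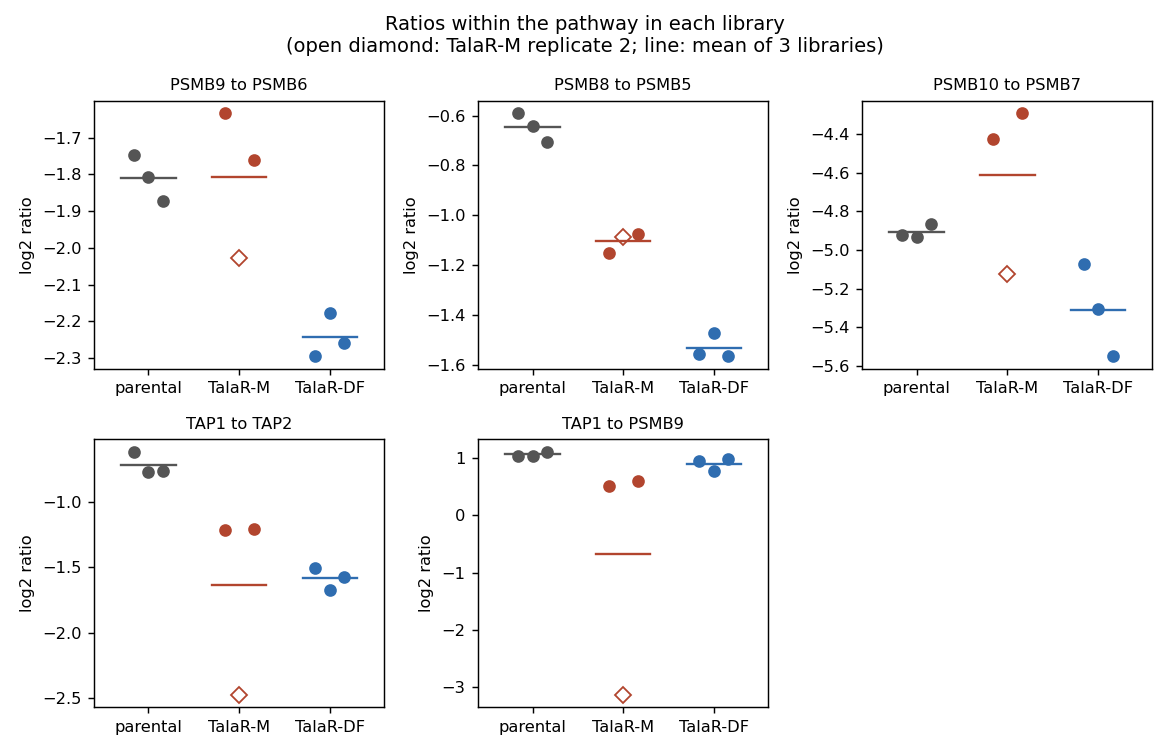
Log2 ratio of the genes named above each panel (vertical axis) in each parental, TalaR-M and TalaR-DF library, with lines at group means and an open diamond for TalaR-M replicate 2. The ratio of PSMB8 to PSMB5 stepped down from -0.64 to -1.10 and -1.53, and the ratio of TAP1 to TAP2 lay below the parental range in both TalaR groups.

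The other genes of the pathway were followed in lists, and the genes named from them as called were also called without TalaR-M replicate 2. The counts of each list stand beside the shares of all genes. With all 9 libraries these were 10.3% higher and 13.2% lower, 6.77% and 11.8%, and 7.79% and 4.25% in the 3 comparisons. Without TalaR-M replicate 2 they grew to 30.2% and 30.0%, 32.5% and 30.4%, and 23.5% and 25.3%. Of 14 peptide loading and trimming genes, 3 were higher and 1 lower in TalaR-M than parental cells, and the median log2 fold change was 0.02. TAPBPL, a tapasin relative that edits peptides, rose by 1.20 (adjusted p = 0.00531, with 0.97 in the fit without TalaR-M replicate 2), ERAP2, a peptide trimming aminopeptidase, by 0.64 (adjusted p = 0.0145) and the chaperone HSPA5 by 0.54 (adjusted p = 0.0155), whereas PDIA3, a disulfide isomerase of the loading complex, fell by 0.54 (adjusted p = 0.0193). For TalaR-DF against parental cells 0 genes of this list were higher and 1 lower, PDIA3 with -0.48 (adjusted p = 0.0362), with a median of -0.19. Between TalaR-M and TalaR-DF cells 2 were higher and 0 lower, TAPBPL by 1.62 (adjusted p = 0.00237) and tapasin, TAPBP, by 0.82 (adjusted p = 0.0258). Tapasin bridges TAP and the heavy chain, and its values of 7.20, 7.86 and 7.19 log2 CPM in TalaR-M against 6.66, 6.58 and 6.57 in TalaR-DF libraries did not overlap. Leaving out TalaR-M replicate 2, the list had 6 higher and 5 lower in TalaR-M against parental cells, 4 higher and 7 lower in TalaR-DF against parental cells, and 4 higher and 2 lower between the resistant groups.

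Of 5 immunoproteasome and PA28 genes beside PSMB9, 2 were higher and 0 lower in TalaR-M than parental cells, with a median of 1.06, and all 5 were higher without TalaR-M replicate 2, with a median of 0.61. PSMB10, a catalytic immunoproteasome subunit, rose by 1.27 (adjusted p = 0.0107, with 0.97 in the fit without TalaR-M replicate 2), and PSME1, a PA28 subunit, by 0.98 (adjusted p = 0.0414, with 0.61 in the fit without TalaR-M replicate 2). PSMB8 was at 5.98, 5.98 and 5.94 log2 CPM in parental, at 6.25, 7.39 and 6.14 in TalaR-M and at 5.74, 5.61 and 5.54 in TalaR-DF libraries, the group order of PSMB9, and its log2 fold change in TalaR-M cells was 0.63 (adjusted p = 0.165, and 0.0188 without TalaR-M replicate 2). Against parental cells, in TalaR-DF, 0 of these 5 genes were higher and 0 lower in the fit of all libraries, with a median of 0.04, and 2 higher and 1 lower without TalaR-M replicate 2. Their count at an unadjusted p under 0.05 from limma was also 0. Between the resistant groups 1 of the 5 was higher in TalaR-M cells, PSMB10 by 1.43 (adjusted p = 0.0118), and 4 were without TalaR-M replicate 2. Of 14 constitutive proteasome genes, 2 were higher in TalaR-M than parental cells, PSMB5 by 1.09 (adjusted p = 0.0320, with 0.70 in the fit without TalaR-M replicate 2) and PSMA3 by 0.79 (adjusted p = 0.0431, with 0.49 in that fit), and 0 were lower. In the other comparisons 0 were called by limma in all 9 libraries, also at an unadjusted p under 0.05, with medians of 0.15 and 0.46. Without TalaR-M replicate 2, 6 of the 14 were higher and 0 lower in each resistant group against parental cells, and 0 were called between the resistant groups (2 at an unadjusted p under 0.05). The ratio partners PSMB6 and PSMB7 had log2 fold changes of 0.74 (adjusted p = 0.243) and 0.97 (adjusted p = 0.119) in TalaR-M against parental cells, and of 0.14 (adjusted p = 0.133) and 0.42 (adjusted p = 0.000382) without TalaR-M replicate 2.

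Of 11 genes for partners of NLRC5 and factors of the class I promoter, 0 were higher and 1 lower in TalaR-M than parental cells, with a median of -0.31. NFYC, a subunit of the factor that binds the Y box, fell by 0.88 (adjusted p = 0.00425). RFX5, which holds NLRC5 at the X box, was at 6.71, 6.72 and 6.75 log2 CPM in parental, at 6.39, 4.78 and 6.20 in TalaR-M and at 6.43, 6.20 and 6.43 in TalaR-DF libraries, below the parental range in all resistant libraries. Its log2 fold change was -0.93 in TalaR-M (adjusted p = 0.108, and -0.43 with 0.000814 without TalaR-M replicate 2) and -0.38 in TalaR-DF cells (adjusted p = 0.600, and 0.000857 without TalaR-M replicate 2). Between TalaR-DF and parental cells 0 genes of this list were higher and 1 lower, the repressor PRDM1 with -2.05 (adjusted p = 0.00924), with a median of -0.30, and between the resistant groups 0 were higher and 0 lower in the fit of all libraries, with 4 at an unadjusted p under 0.05 from limma, against 3 higher and 2 lower without TalaR-M replicate 2. That fit had 0 higher and 3 lower in TalaR-M and 1 higher and 6 lower in TalaR-DF against parental cells.

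Of 19 interferon signalling genes, 1 was higher and 0 lower in TalaR-M than parental cells, IRF9 by 0.72 (adjusted p = 0.0205), with a median of -0.19. In TalaR-DF against parental cells 0 were higher and 4 lower, with a median of -0.09: the DNA sensing adaptor TMEM173 fell by 1.84 (adjusted p = 0.000312), IRF7 by 1.82 (adjusted p = 0.00344), STAT2 by 1.03 (adjusted p = 0.00549) and IRF1 by 0.66 (adjusted p = 0.00705). IRF7 was at 0, 0.22 and 0 log2 CPM in TalaR-DF libraries, at or near the floor. Its fold changes against that group, and its spread there, are therefore limited by the floor. IRF1, which acts on the class I interferon element, was at 5.68, 5.54 and 5.59 log2 CPM in parental, at 5.84, 5.90 and 5.69 in TalaR-M and at 5.04, 4.89 and 4.89 in TalaR-DF libraries. The order of the IRF1 groups was that of HLA-B, by a narrow gap between TalaR-M and parental libraries and with TalaR-M replicate 2 close to its group. Between TalaR-M and TalaR-DF cells 4 genes of the list were higher and 0 lower, IRF7 by 1.68, TMEM173 by 1.65, IRF9 by 0.93 and IRF1 by 0.87 (adjusted p = 0.00838, 0.00109, 0.0121 and 0.00315). Without TalaR-M replicate 2, 4 genes of the list were higher and 5 lower in TalaR-M against parental cells, 2 higher and 6 lower in TalaR-DF against parental cells, and 9 higher and 2 lower between the resistant groups, where the median turned from -0.16 to 0.26.

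IRF2, a relative of IRF1 that binds the same element, was at 4.50, 4.58 and 4.46 log2 CPM in parental, at 4.28, 2.63 and 4.17 in TalaR-M and at 4.53, 4.27 and 4.62 in TalaR-DF libraries, with log2 fold changes of -0.82 (adjusted p = 0.169, and -0.29 with 0.0427 without TalaR-M replicate 2) and -0.04 (adjusted p = 0.977) against parental cells.

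Of 8 NF-kB genes, 0 were higher and 1 lower in TalaR-M than parental cells, NFKB2 with -0.65 (adjusted p = 0.0331), and 0 were higher and 3 lower in TalaR-DF cells, NFKB2 with -1.16 (adjusted p = 0.00282), RELB with -0.88 (adjusted p = 0.0496) and the inhibitor gene NFKBIA with -0.62 (adjusted p = 0.0125). RELB was 1.16 higher in TalaR-M than in TalaR-DF cells (adjusted p = 0.0245), the 1 gene of the list called there. The NF-kB counts without TalaR-M replicate 2 were 1 higher and 3 lower, 2 and 3, and 3 and 2 in the 3 comparisons. Of 14 class I-like and natural killer ligand genes, 8 passed the filter, and 2 were higher and 1 lower in TalaR-M than parental cells: FCGRT, the neonatal Fc receptor chain that also pairs with B2M, rose by 1.31 (adjusted p = 0.0276, with 0.86 in the fit without TalaR-M replicate 2), the stress ligand ULBP2 by 0.57 (adjusted p = 0.0494), and PROCR fell by 0.67 (adjusted p = 0.0321). For TalaR-DF against parental cells 0 were higher and 2 lower, MR1, which presents vitamin metabolites with B2M, by 1.15 on the log2 scale (adjusted p = 0.00808) and PROCR by 1.07 (adjusted p = 0.00457). FCGRT and MR1 were 1.75 and 1.26 higher in TalaR-M than in TalaR-DF cells (adjusted p = 0.0148 and 0.00850). The counts of this list without TalaR-M replicate 2 were 4 higher and 1 lower, 1 and 5, and 5 and 0. Of 13 reference genes 1 was lower in TalaR-M than parental cells, PGK1 by 1.20 on the log2 scale (adjusted p = 0.0110), 1 was higher and 1 lower in TalaR-DF cells, with HPRT1 higher by 0.52 (adjusted p = 0.0227), and 0 were called between the resistant groups by limma, with 3 at an unadjusted p under 0.05. The reference gene counts without TalaR-M replicate 2 were 3 higher and 4 lower, 5 and 6, and 1 and 3. In all 9 libraries the medians of these 3 lists ranged from -0.38 to 0.35.

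**Figure D5:**
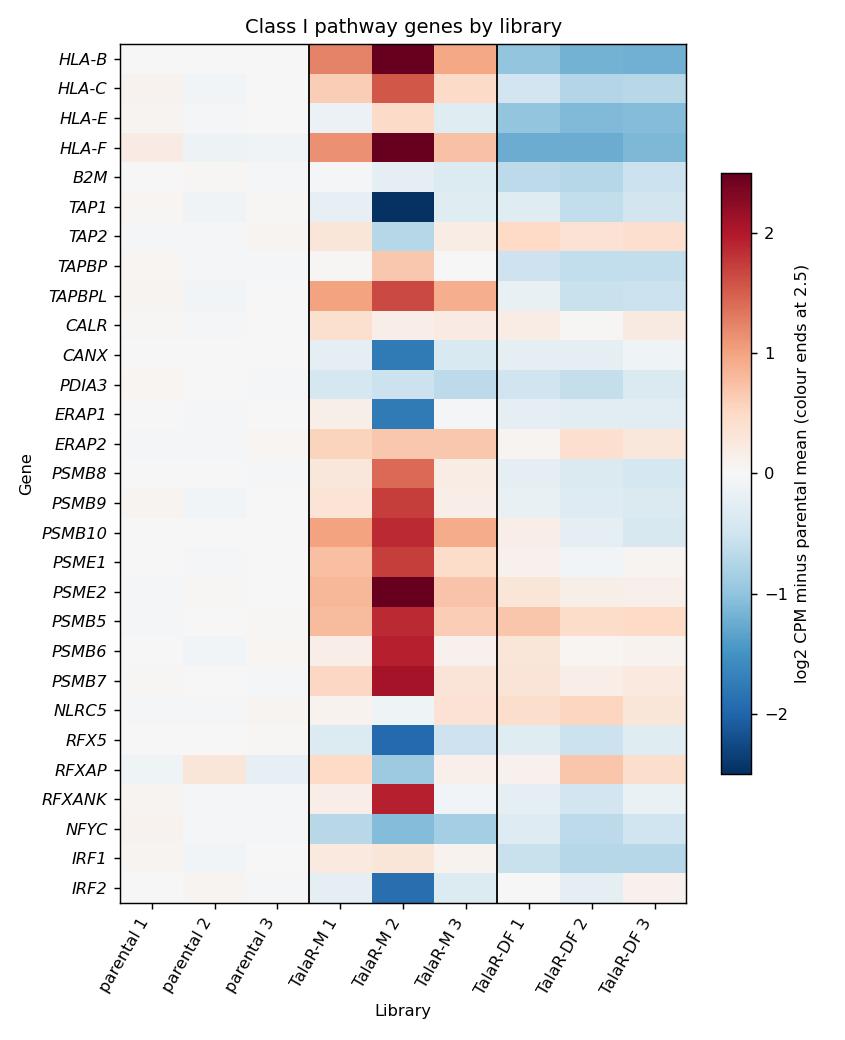
Level of class I pathway genes (rows) in each of 9 libraries (columns) as log2 CPM minus the parental mean of that gene, with red for higher, blue for lower and the colour ending at 2.5. The TalaR-DF columns were blue for HLA-B, HLA-C, HLA-E, HLA-F, B2M and IRF1 and red for TAP2 and NLRC5, and TalaR-M replicate 2 differed from its neighbours in many rows.

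The genes whose profile over the 9 libraries was most like the mean standardised profile of the members, among 9511 genes with a mean above 3 log2 CPM, were MAGED1 (Pearson r = 0.992), PTRF (0.991), MLC1 (0.990), FBLIM1 (0.988) and the class II chain gene HLA-DPA1 (0.987). The mean profile averages members of opposite order, TAP2 and NLRC5 having their highest group mean in TalaR-DF cells. The likeness therefore need not hold for each member. MAGED1 was between 6.73 and 6.78 log2 CPM in parental, between 7.20 and 7.28 in TalaR-M and between 6.12 and 6.32 in TalaR-DF libraries. Without TalaR-M replicate 2, the 5 most alike genes were DAP, ZHX2, PTRF, PVRL2 and MARVELD1 (r from 0.991 to 0.994), with PTRF common to both sets. For NLRC5 alone they were NBEAL2 (0.955), TICRR (0.954), POLD1 (0.945), WDR59 (0.943) and LIG1 (0.940) over 9 libraries, and TICRR, PIEZO1, IGSF9B, CACTIN and MRPS25 over 8 (r from 0.967 to 0.982). The points of these correlations are libraries of 3 groups, so that r describes differences between groups more than variation within them.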

How the data were processed

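RNAseq of 9 PSN1 libraries (parental, TalaR-M and TalaR-DF, 3 each) was used. Libraries were made with a stranded kit from poly(A) RNA. The build hg38 is named in the submitters' processing notes. The aligner, the counting and its strand setting are not given in the sources used here. The deposited values are log2 CPM with a prior count of about 1 and with values under 0 set to 0, as read from the values themselves, so that 0 stands for at most 1 CPM and fold changes of low genes are understated. Their scaling did not follow the read total alone. In TalaR-M replicate 2, 1 CPM stood for 7.54 reads, with 8387755 reads on genes above 1 CPM. In TalaR-M replicate 3 it stood for 14.05 reads, with 12597635 such reads. TalaR-M values came from the columns named maintain and TalaR-DF values from those named withdraw. Whole reads, recovered to within 0.1 for 100% of values under 50 CPM, gave the depth and the read counts quoted for HLA-F and TAP1. They entered no test of the members, and sampling error is largest for HLA-F.

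Values were compared as deposited with limma 3.58.1 in R 4.3.3, with 1 model of 3 groups and a mean-variance trend, over 12471 genes above 1 CPM in at least 3 libraries. Genes at a Benjamini-Hochberg adjusted p under 0.05 were called. The test was checked on simulated data with the same dispersion for every gene and library. This check does not cover a library that deviates as TalaR-M replicate 2 did. Ratios were compared with exact permutation tests. Positions, lengths and GC content came from GENCODE 44, which matched 93.74% of genes tested, and promoters from RefSeq. Python 3.11.15 with matplotlib 3.10.9 was used for ratios and plots.

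The members, lists and comparisons were chosen with earlier results of these data known. Named were all members with every library's value, in each list up to 4 called genes with the largest fold change and no overlap, the ratio partners, HLA-G, IRF1, IRF2, RFX5 and PSMB8, and the 5 genes most like the members' mean profile and NLRC5. The longer interferon motif was added after the windows were seen. Alternatives were an added 8 CPM, no filter or 5 CPM, rescaling by the median ratio, no trend, a replicate block, only the groups compared, a 2-fold threshold and leaving out each library. Removal of the length and GC trend from TalaR-M replicate 2 and the likeness without it were chosen after seeing the data. Some other genes, and a ratio that needs 1 of them, are not reported here.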

Additional observations from a re-analysis of the deposited data

How the results depend on the processing

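For TalaR-M with parental, TalaR-DF with parental and TalaR-M with TalaR-DF cells, in this order, 3, 2 and 4 members and 2938, 2315 and 1502 genes were called. With only the groups compared in the fit, the members were 0 (3 at an unadjusted p under 0.05 by limma), 9 and 2, and the genes 1724, 7755 and 591, the middle values coming from a fit that holds no TalaR-M library. With no filter on low values 1 member and 2503 of 20241 genes were called in the first comparison. With the length and GC trend removed from TalaR-M replicate 2 the members were 4, 7 and 5. The genes were 4499, 3765 and 3043 of 11690 tested. This alternative was chosen after seeing the data. At a threshold of 2-fold the members were 2, 1 and 4 and the genes 1653, 1214 and 864. Leaving out 1 library at a time gave from 0 to 7, from 1 to 9 and from 3 to 6 members, and from 1801 to 7506, from 1406 to 7850 and from 724 to 6084 genes, the highest each time without TalaR-M replicate 2. Without any 1 parental library 0 members and at most 1841 genes were called in the first comparison, and at most 1000 genes in the last. Without any 1 TalaR-DF library 1 member and from 2326 to 2334 genes were called in the first comparison. At most 1490 genes were called in the second and at most 790 in the last. In the second comparison 1 member was called without parental replicate 1, parental replicate 2 or TalaR-DF replicate 2, with 1406, 1441 and 1481 genes. Without TalaR-M replicate 3 it was 4 members and 2275 genes. The cause of these shifts was not tested.

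In TalaR-M against parental cells the log2 fold change of HLA-E ranged from -0.22 to 0.17, and that of TAP2 from -0.26 to 0.24, when 1 library was left out, with the sign turned without TalaR-M replicate 2. For TAP2 it also turned with the trend removed (0.28). HLA-B, HLA-C and HLA-F kept their direction in each comparison under the 17 alternatives that refit the model, with differences between TalaR-M and TalaR-DF cells from 2.23 to 3.03, from 1.19 to 1.73 and from 1.02 to 3.05. HLA-E and B2M kept theirs in TalaR-DF against parental cells. Rescaling by the median ratio moved the median over all genes from -0.09 to 0.02 in TalaR-M against parental cells and from -0.09 to 0.07 between the resistant groups. Under it HLA-C did not pass in the former (adjusted p = 0.0611, range over its alternatives 0.000144 to 0.129), B2M passed in the latter (adjusted p = 0.0289, range 0.00185 to 0.541), and the log2 fold change of TAP2 in the former was 0.04. With 8 CPM added, the ratio of PSMB10 to PSMB7 in TalaR-M minus parental cells turned from 0.29 to -0.29, and against TalaR-DF cells it went from 0.70 to -0.00.

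Same-numbered libraries of different groups did not deviate together (correlations from -0.42 to 0.22, and not every library correlated best with its own number). With 3 libraries per group, and with TalaR-M replicate 2 apart from its group, these correlations cannot show whether same-numbered libraries shared a culture or batch. With a replicate block 1, 2 and 4 members and 2361, 1783 and 999 genes were called. HLA-F rests on between 22 and 174 reads per library, so that small changes in it could not be detected at this depth.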
